A study of Mus musculus with 6 samples.

Results

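Dendritic cell marker genes were followed across 6 mouse macrophage arrays. The set held 6 genes, chosen by name as genes by which dendritic cells are commonly recognised: Itgax, Flt3, Cd209a, Batf3, Ccr7 and Xcr1. All 6 were among the 27361 gene names on the array, and 5 of them were among the 19044 genes tested, which were those well above background on at least 2 of the 6 arrays. Cd209a was the member left out of the tests.

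The cells were bone marrow-derived macrophages of C57BL/6 mice, grown for 7 days with 10% medium conditioned by L929 fibroblasts, a usual source of the macrophage growth factor CSF1. WT cells carried floxed FoxO1 alleles (FoxO1 Fl/Fl) and no Cre. KO cells were LysMcre FoxO1 Fl/Fl, so that Cre was driven from the lysozyme M gene, which is active in macrophages and neutrophils. Over the last 24 h, M0 cells were left without stimulus, M1 cells had LPS at 100 ng/ml and IFN-γ at 20 ng/ml, and M2 cells had IL-4 and IL-13, both at 10 ng/ml. Genotype and state together gave 6 groups of 1 array, so replicates are lacking throughout, and the labels do not say whether the RNAs came from separate animals. Only KO cells carried Cre, so loss of FoxO1 and presence of Cre cannot be told apart.

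Dendritic cells and macrophages are related phagocytes, and many genes used to tell them apart are shared between them under stimulation. Conventional dendritic cells arise from bone marrow progenitors under the growth factor FLT3L, take up antigen in tissue and carry it to lymph nodes, where they present it to T cells. The conventional type 1 lineage (cDC1) cross-presents antigen to CD8+ T cells and depends on Batf3. Monocyte-derived dendritic cells can be grown with IL-4 and GM-CSF in culture, and their markers are listed here with those of the type 2 lineage (cDC2).

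The members stand for different steps of that biology. Itgax encodes CD11c, the alpha X chain that pairs with Itgb2 to form a complement-binding integrin. Batf3 encodes an AP-1 family transcription factor without a transactivation domain of its own. Flt3 encodes the receptor for FLT3L. Xcr1 and Ccr7 encode chemokine receptors, the former for XCL1 and the latter for CCL19 and CCL21, the signals that lead mature dendritic cells into lymphatics. Cd209a encodes a C-type lectin of the DC-SIGN family.

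Every member value rests on the 60-base probes printed on the slide, 8 for the 6 genes, and the first 30 bases of each are given 5′ to 3′ because Itgax and Xcr1 each had a pair of probes that did not read alike.
Itgax, brighter probe: tcccatctacttttgcaacgttggaattga
Itgax, dimmer probe: accacttcctcctgtaacttcctcttgaag
Batf3: ctcctttgtccggctcggaaccttggtttg
Flt3: aagttcagttacacccgcccttggatcagc
Xcr1, brighter probe: cagcacaacatcttcttcctcctctccatg
Xcr1, dimmer probe: ttttttaagtgtctgttaatgagggggaaa
Ccr7: cttctagcttagagagatgtcccggagatt
Cd209a: tccttgtcaaagtctacaaaatacccagtt

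On the mm9 build the files place the brighter Itgax probe at chr7:135294052-135294111 and the dimmer one at chr7:135277352-135277411. The probe for Batf3 lies at chr1:192932528-192932587 and that for Flt3 at chr5:148159595-148159654, read from the minus strand. Xcr1 probes lie at chr9:123765160-123765219 (brighter) and chr9:123761482-123761541 (dimmer), both on the minus strand. The Ccr7 probe has 26 of its 60 bases placed, at chr11:99005513-99005538, and the Cd209a probe spans 672 bases, chr8:3747664-3748335, so that its match is split. The files do not say which other probes lie in an exon or a UTR. The brighter probe of a gene stands for the gene unless stated.

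Levels are log2 of the scanner's processed signal relative to the 75th percentile of the same array, which lay between 532 and 628 units, and between 63.1% and 67.9% of spots were well above background. Differences are differences of these log2 levels. Foxo1 itself read 1505, 1144 and 1559 units on the WT M0, M1 and M2 arrays and 224, 165 and 282 units on KO M0, M1 and M2. Of 18 macrophage markers, between 17 and 18 were well above background on every array. Some arrays also carried transcripts of other tissues: 12 of 12 liver genes were well above background on WT M0 and 10 of 12 on KO M1, against 5 to 8 on the others. Of 13 neutrophil genes, 13, 10 and 13 were well above background on WT M0, M1 and M2 and 10, 8 and 9 on the KO arrays. Their signals relative to the 75th percentile were summed, so that the brightest genes weigh most. The log2 of this sum lay between 4.37 and 6.43 in WT and between 3.25 and 4.17 in KO. The arrays lay on 2 slides, WT M0 and WT M1 on 1 and the remaining 4 on the other, so KO and WT were on the same slide in M2 only. In bulk RNA of this kind, fewer cells of a type and less RNA per cell cannot be told apart.

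Itgax was the member with the largest M2 signal relative to its own M0 signal. Its processed signal was 3739 units on WT M0, 1451 on WT M1 and 83371 on WT M2, and 8026, 3236 and 72189 on KO M0, M1 and M2. The scanner's own error was 10.0% of the signal on each array. Both M2 arrays stood far above the other 4, and within M0 and within M1 the KO array was the higher. In level, the order ran from WT M1 (1.31) through KO M1 (2.48), WT M0 (2.81), KO M0 (3.75) and KO M2 (6.84) to WT M2 (7.24). The gap of 0.33 between KO M1 and WT M0, and that of 0.40 between KO M2 and WT M2, were within 1.96 standard errors of the scanner's own error, and the other neighbours differed by more.

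M2 minus M0 for Itgax was 4.43 in WT and 3.099 in KO. The mean over both genotypes was 3.76 ± 0.45 (SE), which ranked 61 from the top of 19044 genes and did not pass the threshold in limma (adjusted p = 0.0812). That call depended on the processing: the adjusted p in limma was 0.0128 with median centring and 0.0442 with genes above background on all 6 arrays. The difference did not pass with no filter (adjusted p = 0.127 in limma) or under normexp background correction (0.157). With slide as a block its value was 3.04. M1 minus M0 was -1.51 in WT and -1.27 in KO (mean -1.39 ± 0.45 SE, adjusted p = 0.103 in limma), and with slide as a block this difference passed (adjusted p = 0.0231). Subtracting WT from KO gave 0.93 for M0, 1.17 for M1 and -0.40 for M2.

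The dimmer Itgax probe gave the same order of states for M2 and another for M1. It read 57.5, 67.0 and 759 units on WT M0, M1 and M2, and 106.9, 105 and 675 units on KO M0, M1 and M2. M2 again stood above M0 in both genotypes, by 3.67 in WT and 2.59 in KO. M1 minus M0 was 0.08 in WT and 0.01 in KO on this probe, so the lower M1 level of Itgax was seen on 1 of its 2 probes. Its KO minus WT values of 0.72, 0.66 and -0.36 in M0, M1 and M2 had the signs of the brighter probe.

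**Figure D1:**
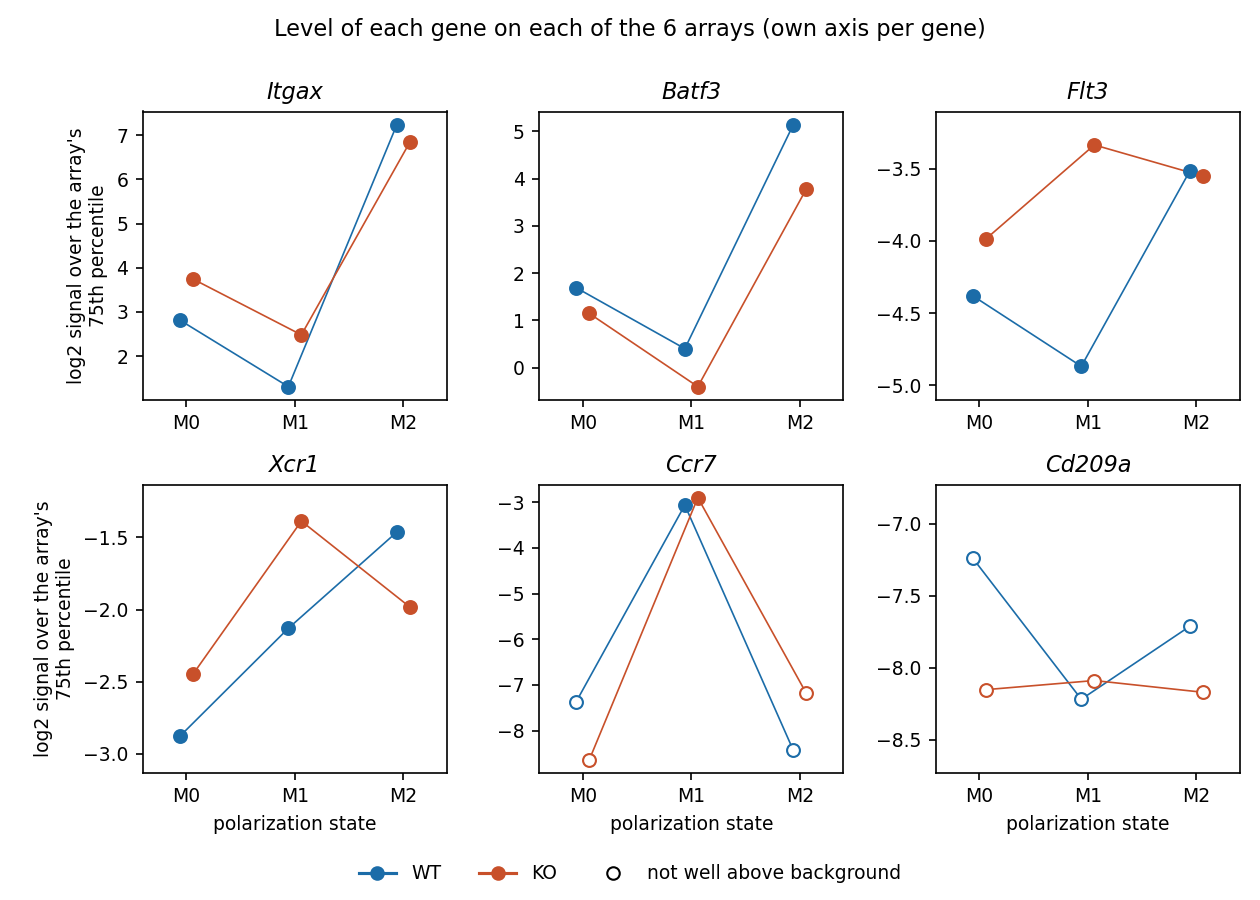
Level of each of the 6 genes on each array, as log2 processed signal over the array's 75th percentile (vertical axis, own range per gene) against polarization state. Each point is 1 array, open points were not well above background; Itgax and Batf3 peak in M2, Ccr7 is above background in M1 alone, and Cd209a is open throughout.

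Batf3 shared with Itgax the high M2 and low M1 arrays, but was lower in KO in every state. Its processed signal was 1712, 774 and 19457 units on WT M0, M1 and M2 and 1322, 438 and 8635 units on KO M0, M1 and M2. Each KO array lay below the WT array of its state, and each M2 array above every M0 and M1 array. The levels ran from -0.41 on KO M1 to 5.14 on WT M2, and all neighbours in that order differed by more than 1.96 standard errors of the scanner's error, the smallest gap being 0.54 between KO M0 and WT M0.

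Batf3 fell in M1, with differences from M0 of -1.29 in WT and -1.55 in KO. The mean of -1.42 ± 0.26 (SE) passed the threshold in limma (adjusted p = 0.0317). This call was lost when any 1 of the 4 M0 and M1 arrays was left out (adjusted p between 0.149 and 0.204) and under normexp background correction (adjusted p = 0.0732). Without WT M0, the array with the liver transcripts, the difference was -1.69, and without KO M1 it was -1.49.

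In M2 the Batf3 level was 3.45 above M0 in WT and 2.64 above it in KO. The mean of 3.05 ± 0.26 (SE) was reached or exceeded by 0.562% of the 19044 genes and missed the threshold (limma, adjusted p = 0.0624). It passed with median centring (adjusted p = 0.0119 in limma), quantile normalization (0.0469) and the authors' value table (0.0466). It did not pass with no filter (adjusted p = 0.103 in limma) or under normexp (0.131). With slide as a block the value was 2.70. For Batf3 the KO level relative to WT was -0.54 (M0), -0.80 (M1) and -1.36 (M2). The mean of -0.90 ± 0.21 (SE) had an unadjusted p of 0.0137 and an adjusted p of 0.377 in limma, so the lower KO level did not pass the test over all genes. The M2 pair, which shares a slide, held the largest of these differences.

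Because Itgax and Batf3 both read highest in M2, the IL-4 and IL-13 state, the 250 bases before their annotated starts are shown, from RefSeq on GRCm38.p6, a later build than that of the probe coordinates. Of the 6 genes 5 had a promoter entry, all but Ccr7. Capitals mark matches to any of 5 motifs searched on both strands: TTCNNNNGAA, the spacing preferred by the IL-4 factor STAT6, TTCNNNGAA, the spacing of other STATs, TGANTCA, the AP-1 and BATF element, GAGGAA, the core bound by the myeloid factor PU.1, and GTAAACA, a FoxO element.
Itgax: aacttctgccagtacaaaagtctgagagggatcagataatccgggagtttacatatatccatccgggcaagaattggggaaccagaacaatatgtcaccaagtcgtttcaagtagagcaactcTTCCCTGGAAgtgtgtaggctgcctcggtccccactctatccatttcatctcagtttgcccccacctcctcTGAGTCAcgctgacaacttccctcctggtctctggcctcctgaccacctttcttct
Batf3: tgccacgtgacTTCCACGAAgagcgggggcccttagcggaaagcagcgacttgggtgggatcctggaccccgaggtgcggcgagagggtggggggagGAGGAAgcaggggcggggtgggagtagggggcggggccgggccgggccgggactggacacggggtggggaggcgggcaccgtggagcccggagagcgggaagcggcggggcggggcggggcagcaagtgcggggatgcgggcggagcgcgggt

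The Itgax window, chr7:128129300-128129549 on the plus strand, held 1 TTCNNNNGAA match, TTCCCTGGAA, from 127 to 118 bases before the start. It also held 1 TGANTCA match, TGAGTCA, from 56 to 50 bases before it. The Batf3 window, chr1:191098164-191098413 on the plus strand, held 1 TTCNNNGAA match, TTCCACGAA, from 239 to 231 bases before the start and 1 GAGGAA match from 153 to 148 bases before it. No matches overlapped, and GC content was 50% in the Itgax window and 76.0% in the Batf3 window. The windows of Flt3, Cd209a and Xcr1 held none of the 5 motifs, and none of the 5 windows held GTAAACA. Of all 32841 promoter windows of this length, 5.85% held TTCNNNNGAA, 7.02% TTCNNNGAA, 6.75% TGANTCA, 23.3% GAGGAA and 3.17% GTAAACA. These are letter matches and show no binding.

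Flt3 was dim but above background on every array. Its processed signal was 25.5, 20.1 and 48.2 units on WT M0, M1 and M2 and 37.8, 57.6 and 53.6 units on KO M0, M1 and M2, with a scanner error between 10.4% and 12.6%. The WT M1 array was the lowest and the KO M1 array the highest of the 6. In level, the gaps between WT M0 (-4.38) and KO M0 (-3.99), between KO M2 (-3.55) and WT M2 (-3.51), and between WT M2 and KO M1 (-3.33) were within 1.96 standard errors of the scanner's error.

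For Flt3 the KO level relative to WT was 0.39 (M0), 1.54 (M1) and -0.04 (M2). The mean of 0.63 ± 0.36 (SE) did not pass in limma (adjusted p = 0.524). The M2 value had the opposite sign with median centring (0.04), quantile normalization (0.05) and the authors' value table (0.06). Under normexp the M0 value was 1.29 and the M1 value 0.42, so which state differed most depended on the background correction. M1 minus M0 was -0.49 in WT and 0.65 in KO, and M2 minus M0 was 0.87 in WT and 0.44 in KO, with fitted means of 0.08 ± 0.44 and 0.65 ± 0.44 (SE; limma adjusted p = 0.910 and 0.447).

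Flt3 was also read beside other growth factor receptors, in a list of 12 genes. The list held Flt3, Kit, the GM-CSF and CSF1 receptors, the ligands of all of these and the signal transducers Stat5a and Stat5b. Of the 11 tested, 1 rose and 1 fell in M1, 9.09% each way beside 11.6% and 14.0% of all tested genes, shares near the background. Flt3l, the ligand of FLT3, rose by 1.54 ± 0.20 (SE), and Csf1r, the receptor for CSF1, was at -1.30 ± 0.18 (limma adjusted p = 0.0166 and 0.0191). The largest M2 values were 1.15 for Csf2rb and 0.76 for Csf2ra, which encode the GM-CSF receptor chains, and neither passed (limma adjusted p = 0.126 and 0.175). Csf2, which encodes GM-CSF, was on no array well above background.

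Xcr1 was low, and the M0 arrays were the lowest of each genotype. It read 72.2, 134 and 200 units on WT M0, M1 and M2 and 110, 222 and 159 units on KO M0, M1 and M2. KO M1 (level -1.39) and WT M2 (-1.46) were the highest and lay within the scanner's error of each other. M1 minus M0 was 0.75 in WT and 1.06 in KO (mean 0.91 ± 0.37 SE, limma adjusted p = 0.153, and 0.0443 with slide as a block), and M2 minus M0, against the same M0 arrays, was 1.42 and 0.47 (mean 0.94 ± 0.37 SE, limma adjusted p = 0.285). The KO level relative to WT was 0.43 (M0), 0.74 (M1) and -0.52 (M2; mean 0.22 ± 0.30 SE, limma adjusted p = 0.749).

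The other Xcr1 probe was on none of the 6 arrays well above background. It read between 1.76 and 2.48 units, so the Xcr1 values rest on 1 probe. Transcript positions in the files put the detected probe at base 669 and the undetected one at base 4347. Xcl1, the ligand of XCR1, was well above background on WT M0 alone, at 10.6 units, and was not tested.

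**Figure D2:**
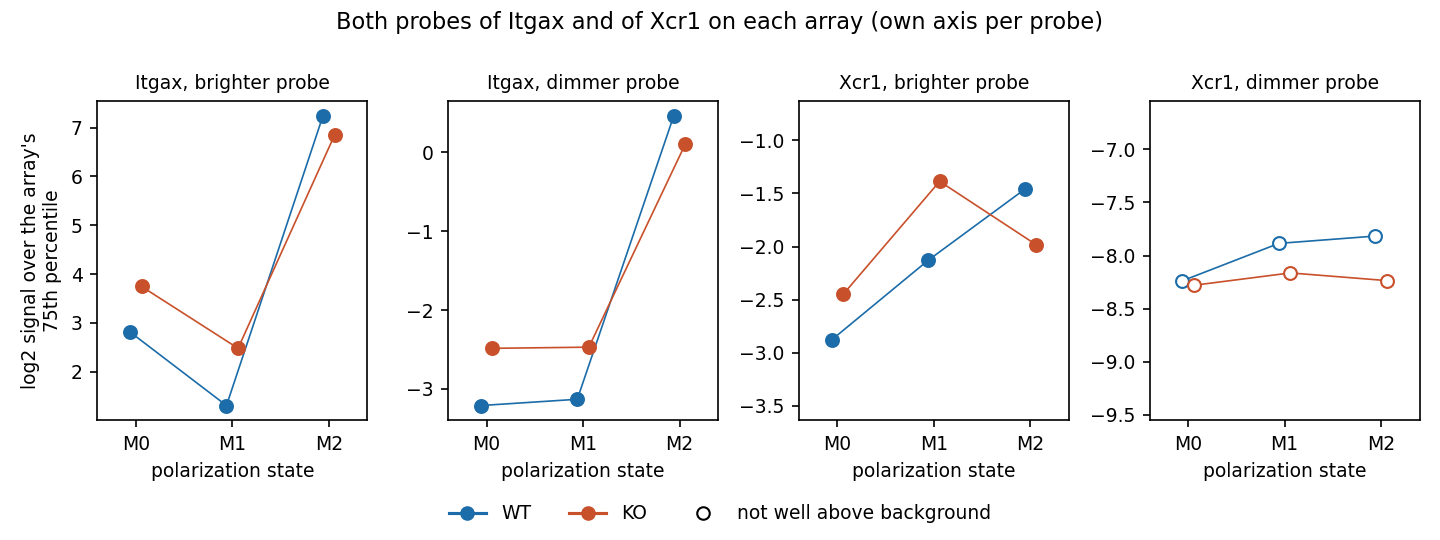
Level of both probes of Itgax and of Xcr1, as log2 processed signal over the array's 75th percentile (vertical axis, own range per probe) against state; each point is 1 array and open points were not well above background. The Itgax probes share the high M2 arrays but differ between M0 and M1, and the dimmer Xcr1 probe is open on all 6 arrays.

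Ccr7 was above background in M1 alone. It read 70.0 units on WT M1 and 77.5 units on KO M1, against 3.23 and 1.60 units on WT M0 and M2 and 1.504 and 4.31 units on KO M0 and M2. Those 4 arrays were not well above background, so they give an upper limit to the level and not a level. Set against the lowest signal that counted as well above background on the M0 arrays, Ccr7 was at least 10.4-fold higher in M1 in WT and at least 13.2-fold higher in KO.

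Over both genotypes Ccr7 was at least 11.7-fold higher in M1 (limma adjusted p = 0.0175). It entered the test only through the 2 M1 arrays on which it is high, so that p is given as a description and Ccr7 is left out of the counts of called genes below. The p was above the threshold without any 1 of the M0 and M1 arrays (adjusted p between 0.103 and 0.116) and under normexp, where the difference was 0.28 (adjusted p = 0.704) and the fitted background of KO M0 was -223 units against -4.26 to -17.1 on the others. The WT and KO M1 arrays differed by 0.16, within the scanner's error (1.96 standard errors were 0.41). No fold is given for Ccr7 between M2 and M0 or between genotypes in M0 or M2, where both arrays were not well above background. Of the ligands of CCR7, Ccl19 was well above background on every array, with M1 minus M0 of -0.44 in WT and 0.20 in KO, and Ccl21a was on none.

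Cd209a was on no array well above background. It read 3.52, 1.97 and 2.63 units on WT M0, M1 and M2 and 2.11, 2.13 and 2.18 units on KO M0, M1 and M2, with a scanner error between 55.8% and 99.7%. No comparison of Cd209a is made. Of the 7 CD209 genes on the array, Cd209f was above background on all 6, between 13.1 and 17.7 units, and Cd209d on KO M2 alone, at 15.3 units. Cd209a is the marker by which monocyte-derived dendritic cells grown with IL-4 and GM-CSF are often recognised, and it was not detected here on the M2 arrays, which had IL-4 and IL-13.

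Between the genotypes no member passed the threshold, and neither did any other gene. In limma 0% of 19044 genes were called higher and 0% lower in KO, the lowest adjusted p being 0.304, and 2159 genes had an unadjusted p under 0.05. By single pairs of arrays, 0 of 4 measured members were at least 2-fold apart in M0, where 9.41% of genes were at least 2-fold higher and 4.19% lower. In M1, 2 of 5 members, Itgax and Flt3, were at least 2-fold higher in KO, against 13.7% of genes higher and 1.47% lower. Itgax was below 2-fold there with median centring (0.85) and with the mean of its probes (0.92), and Flt3 under normexp (0.42). In M2, 1 of 4, Batf3, was at least 2-fold lower, against 3.20% higher and 4.81% lower.

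Itgax and Xcr1 stood higher in KO in M0 and M1, the pairs that cross slides, and lower in M2, the pair within a slide. The M2 value of Itgax was within the scanner's error. Flt3 stood higher in M1, and its M0 and M2 values were within the scanner's error. Batf3 stood lower in all 3 pairs. With slide as a block the genotype term equals the M2 pair, so it was -0.40 for Itgax, -0.52 for Xcr1 and -0.04 for Flt3, and slide and genotype cannot be told apart in M0 and M1. The split of genes also moved with the scaling: of genes that differed 2-fold or more in M1, the KO array was the higher for 90.3%, against 66.9% with median centring and 70.3% with quantile normalization. Neutrophil signal was also lower on the KO arrays, with 12 of 13 neutrophil genes below 0 and a median of -0.99 for KO against WT. Stromal genes were lower too, 10 of 11 below 0 with a median of -1.03. In M1 6 of 8 T and NK cell genes were at least 2-fold higher in KO, beside 13.7% of all genes. The T and NK list was dim, with a median level of -5.59 on WT M1 and -5.06 on KO M1. Its median for KO minus WT was -0.16 in M0 and -0.11 in M2. The part of these signals in the member values was not tested.

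**Figure D3:**
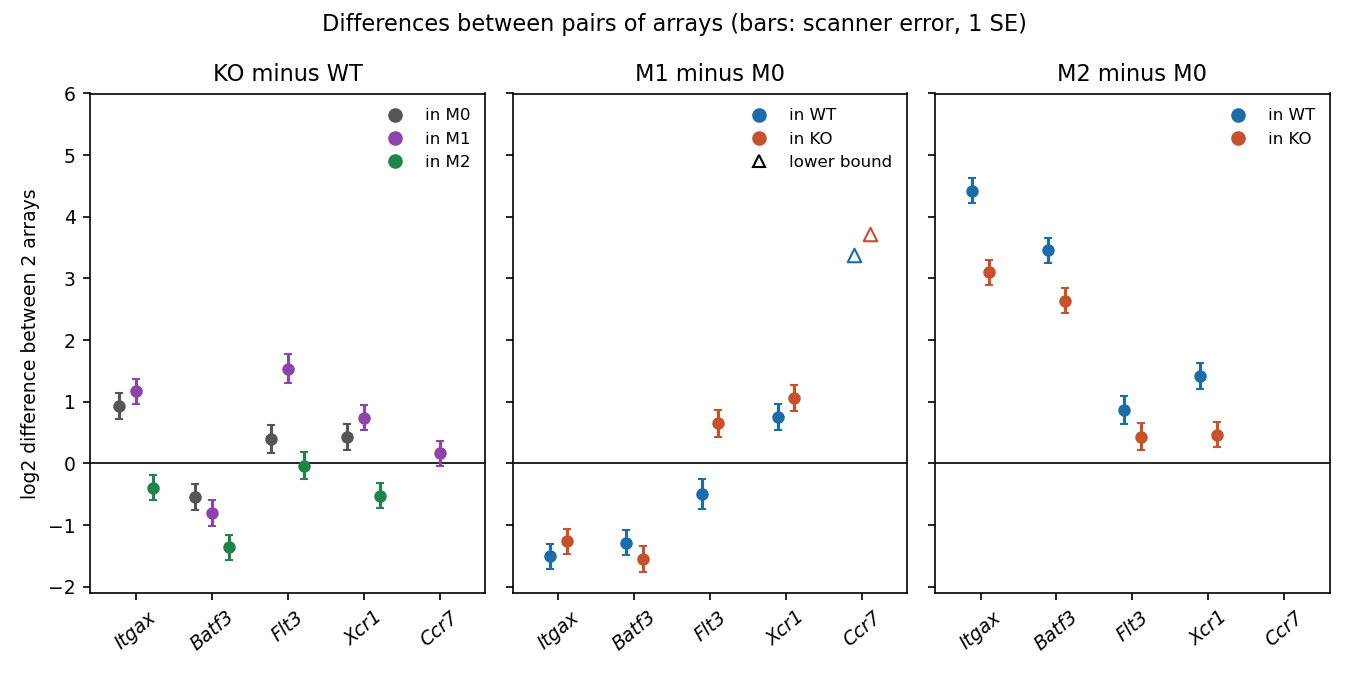
log2 difference between pairs of arrays for the 5 tested genes, KO minus WT by state (left), M1 minus M0 (middle) and M2 minus M0 (right) by genotype; bars are 1 SE of the scanner's error and triangles are lower bounds. Ccr7 is left out where both arrays were not well above background; Batf3 is below 0 in all 3 states on the left and Itgax and Batf3 are the highest on the right.

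In the M1 comparison 11.6% of genes were called higher and 14.0% lower. Leaving out genes above background in 1 state alone, Ccr7 among them, 1 of 4 members fell (Batf3) and 0 rose, beside 13.9% and 11.2% of 18728 genes. By pairs of arrays, Ccr7 was at least 2-fold higher and Itgax and Batf3 at least 2-fold lower in both genotypes. Xcr1 was at least 2-fold higher in KO. Itgax was below 2-fold with the mean of its probes (-0.71 in WT, -0.63 in KO), and in KO also under normexp (-0.86). Batf3 was below 2-fold in WT with median centring (-0.91). Xcr1 in KO was below 2-fold with the mean of its probes (0.59) and under normexp (0.03). Ccr7 in KO was at -0.51 under normexp. In WT 11.6% of genes were at least 2-fold higher and 17.2% lower, and in KO 13.4% higher and 14.5% lower. In WT the share of 2-fold genes that were higher moved from 40.1% to 63.7% with median centring. Among called genes the share higher moved from 45.3% to 58.8%.

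In the M2 comparison no member passed, and few genes of any kind did, with 0.0788% called higher and 0.0210% lower. By pairs of arrays, Itgax, Batf3 and Xcr1 were at least 2-fold higher in WT and Itgax and Batf3 in KO, of 4 measured members. Xcr1 in WT was below 2-fold with the mean of its probes (0.92) and under normexp (0.93). In WT 18.9% of genes were at least 2-fold higher and 8.36% lower. In KO, where M0 and M2 share a slide, 4.62% were higher and 4.41% lower. The M2 differences of Itgax and Batf3 within that slide, 3.099 and 2.64, ranked 99 and 130 from the top.

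Further dendritic cell genes were read from lists of known markers, again without genes above background in 1 state alone, and each M1 count below stands beside 11.2% of all such genes called higher and 13.9% lower. Of 14 mature dendritic cell genes, 6 (42.9%) rose and 0 fell in M1, with a median of 0.47 beside 0.03 over all genes. The T cell costimulators Cd40 (5.07 ± 0.51 SE) and Cd86 (4.93 ± 0.25), the signalling adaptor Traf1 (4.96 ± 0.25) and the IL-15 receptor chain Il15ra (4.80 ± 0.17) rose (limma adjusted p between 0.00678 and 0.0114). Without WT M0 or without KO M1, which leaves 1 array in a state, no call of this or any list was kept. The 6 genes kept their sign in each case. They were picked for these differences on the same arrays, so the kept sign adds no support.

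In M2 the mature list had 0 of 14 genes called and a median of -0.18 beside 0.08 over all genes. Its largest values were 6.81 for the chemokine Ccl17, 5.98 for the amino acid oxidase Il4i1, 4.65 for the signalling suppressor Socs2 and -0.95 for Cd86, none of which passed (limma adjusted p = 0.0528, 0.0633, 0.0624 and 0.184). Mature markers were high in different states: Ccr7, Cd40 and Cd86 on the M1 arrays, and Ccl17, Il4i1 and Socs2 on the M2 arrays, which share their M0 controls. Ccl22, another chemokine of mature cells, was on no array well above background.

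Of 11 cDC1 genes, 3 (27.3%) rose and 4 (36.4%) fell in M1. Clec9a, a receptor for dead cells, is left out of this count because it was above background on the M1 arrays alone, where it was at least 4.40-fold higher. The double-stranded RNA sensor Tlr3 rose by 2.16 ± 0.17 (SE), and the uptake receptor Ly75 by 1.49 ± 0.21. Beside Batf3, the surface protein gene Cd24a fell by 3.46 (limma adjusted p = 0.0197). The list's median was 0.49 in M1, 0.46 in M2 and -0.22 between genotypes, with 0 called in M2 and 0 between genotypes. Among markers of cDC1, Batf3 was highest on the M2 arrays and Clec9a on the M1 arrays, and Xcr1 was highest on KO M1 and WT M2.

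Of the 8 tested genes of cDC2 and monocyte-derived dendritic cells, 2 (25%) rose and 2 (25%) fell in M1, with a median of -0.21. The lectin Clec10a fell by 5.02 and the transcription factor Irf4, not well above background on either M1 array, was at least 4.003-fold lower, whereas the transcription factor Klf4 rose by 3.70 ± 0.52 (SE) and the lipid-presenting Cd1d1 by 1.47 ± 0.25 (limma adjusted p between 0.0111 and 0.0278). In M2 the lectin Mgl2 was 6.20, Irf4 4.93 and Klf4 3.32 above M0, and 0 of 8 passed (limma adjusted p = 0.0579, 0.0707 and 0.106). The list's median in M2 was 1.47, beside 0.08 over all genes, and Cd209a, the member in this list, was not detected.

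Of 15 pan-conventional genes, 5 (33.3%) rose and 2 (13.3%) fell in M1, and 0 were called in M2, where Itgax had the largest value. Beside Traf1, the arginine-synthesis enzyme Ass1 rose by 4.86 ± 0.66 (SE), the immune receptor Slamf7 by 2.75 ± 0.18 and the lineage factor Zbtb46 by 2.63 ± 0.58, and the protease Adam19 fell by 2.83 (limma adjusted p between 0.00750 and 0.0457). Flt3 and Itgax, also on this list, did not pass. Of 8 tested plasmacytoid genes 3 (37.5%) rose and 1 (12.5%) fell in M1, among them the interferon-induced Bst2 (3.21 ± 0.30 SE, limma adjusted p = 0.0105), and Siglech, a defining receptor of that lineage, was on no array well above background.

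Of 18 tested macrophage genes 0 rose and 7 (38.9%) fell in M1, with a median of -0.55, led by the mannose receptor Mrc1, which fell by 5.49, and the clearance ligand Pros1, which fell by 3.05 (limma adjusted p = 0.00716 and 0.00678). By sign, 15 of the 18 macrophage differences were below 0 and 3 were above it, and none of these 3 passed. From M0 to M1 the level of Fcgr1 went from 6.65 to 7.14 in WT and from 6.11 to 7.80 in KO. That of Emr1 went from 7.16 to 7.17 in WT and from 7.39 to 7.77 in KO. Among markers of other cells in M1, 5 of 13 neutrophil genes fell and 1 rose (median -1.74), and 6 of 11 stromal genes fell (median -1.37). Of 6 B cell genes 2 fell (median -0.07), and of 8 T and NK cell genes 1 rose and 0 fell (median 0.36). Of 10 liver genes 0 were called (median -2.22), and their median had opposite signs in the genotypes, -6.26 in WT and 1.79 in KO. No difference between lists was tested. Between genotypes 0 genes of each of these lists were called, and the medians were 0.02 for mature, -0.22 for cDC1, 0.02 for cDC2 and monocyte-derived, 0.17 for pan-conventional and -0.23 for macrophage genes, beside 0.09 over all genes.

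**Figure D4:**
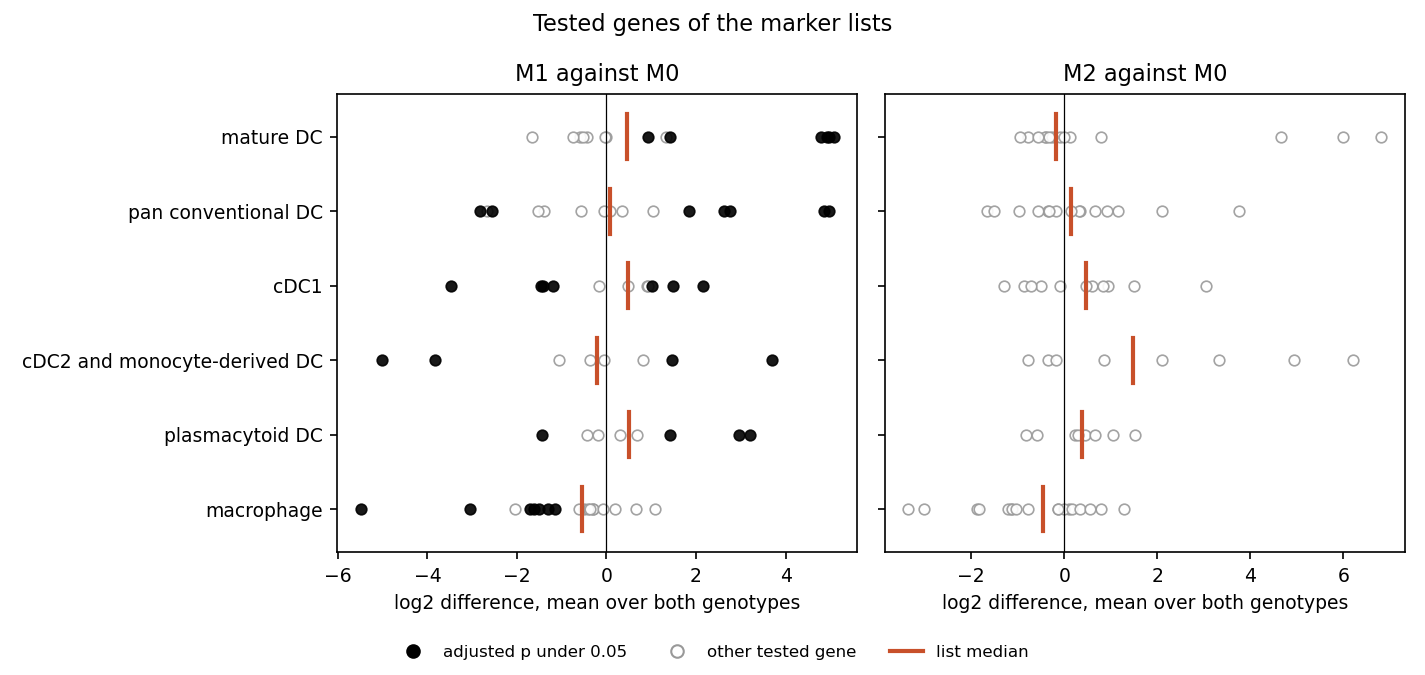
log2 difference of each tested gene in 5 dendritic cell lists and the macrophage list (horizontal axis), M1 against M0 (left) and M2 against M0 (right), as means over both genotypes; filled points passed an adjusted p of 0.05 in limma, bars are list medians, and genes above background in 1 state alone are left out. Filled points lie on both sides of 0 for most lists in M1, on the right alone for mature genes and on the left alone for macrophage genes, and no point is filled in M2.

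Beside their close relatives the members did not move alike. Among the beta2 integrins and their ligands, Icam1, the ligand of LFA-1, rose by 2.35 ± 0.21 (SE) in M1, its alpha chain Itgal by 1.96 ± 0.16 and the shared beta chain Itgb2 by 0.84 ± 0.18, while Itgax was at -1.39 (limma adjusted p = 0.00985, 0.00915, 0.0447 and 0.103). In M2 Itgb2, the partner chain of Itgax, was at 0.84 (adjusted p = 0.152 in limma) beside 3.76 for Itgax. Among the BATF family and its partners, Batf rose by 3.21 ± 0.21 (SE) and Batf2 by 4.55 ± 0.38 in M1, opposite in sign to Batf3, and the partner Irf4 fell, 3 rising and 2 falling of 8 genes. In M2 Irf4 and Batf3 had the largest values of the 8 genes, 4.93 and 3.05, with 0 called.

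Of 13 chemokine receptors above background in more than 1 state, 2 (15.4%) rose and 3 (23.1%) fell in M1, beside 11.2% and 13.9% of all such genes. The chemokine-binding Ccrl2 (4.30 ± 0.20 SE) rose, and Cxcr3 and Cxcr4 were lower, at -5.22 and -4.15 (limma adjusted p = 0.00678 and 0.00718). Between genotypes Ccr2, a receptor of monocytes, was at -1.76 (limma adjusted p = 0.36) and Xcr1 at 0.22.

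Over the 6 arrays the levels of Itgax and Batf3 had a Pearson r of 0.93, and Batf3 and Ccr7 one of -0.70, where the Ccr7 values include 4 arrays not well above background. Among 15876 genes detected on all 6 arrays, those most like Itgax were Lrrc66, Alyref and Slc41a2 (r of 0.997, 0.996 and 0.994). Most like Batf3 were Sdf2l1, Fen1 and Fdps (0.998, 0.993 and 0.993). Among named genes Klhl1 was most like Flt3 (0.988) and Gpr153 most like Xcr1 (0.993). With 6 arrays that share slides and states, between 91 and 203 genes had an r above 0.95 with each of these 4 members, so these likenesses are descriptions.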

How the data were processed

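RNA of 6 macrophage cultures was hybridised to 1-colour Agilent arrays, 1 per genotype and state. The deposited scanner files hold spot intensity, background-subtracted by Agilent Feature Extraction 10.7.3.1 on array design 014868, per the file headers, with probe coordinates on mm9. A table of log2 values deposited by the authors was used as an alternative, its normalization being not given in these sources. Each of its columns correlated with its own array at 0.99886 or more, and column medians lay between 5.39 and 5.41. Arrays measure brightness, so the number of arrays limits the precision.

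Here log2 processed signal minus each array's 75th percentile was used. Control spots and flagged outlier spots were left out, spots of a probe were averaged, and 37 probes left without a usable spot on some array were dropped. The brightest probe stood for a gene. An additive model of state and genotype was fitted over all 6 arrays with limma 3.58.1 in R 4.3.3, with 2 residual and 1.88 prior degrees of freedom and Benjamini-Hochberg adjustment over 19044 genes (threshold 0.05). Effects that depend on the state enter its residual together with array noise, so p-values rest on the spread among these arrays, which may be technical. It was tested on simulated data. Single pairs of arrays have no test. A 2-fold share counts genes well above background on at least 1 of the pair.

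The members and lists were chosen with earlier results of these data known. Named genes were the members and, per list, up to 4 tested genes with the largest difference beside them. The 3 genes most like each member in Pearson r were also named, except those without a gene name. Foxo1, Fcgr1, Emr1 and list genes that were not tested, such as Siglech and Ccl22, were named outside this rule. Alternatives were median centring, quantile normalization, normexp background correction (offset 50), the authors' table, other filters, probe means, an intensity trend, slide as a block and each array left out. Normexp by maximum likelihood, list counts without WT M0 or KO M1, and list counts without genes above background in 1 state alone were chosen after seeing the data.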

Additional observations from a re-analysis of the deposited data

Results flagged for a closer look

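When M1 was set against M0, Flt3 was at -0.49 in WT and 0.65 in KO, each beyond 1.96 standard errors of the scanner's error. Each value is 1 array against 1 array, and the difference between them was not tested. The WT value was within that error with median centring (-0.11), quantile normalization (-0.08) and the authors' value table (-0.09), so the opposite direction depended on the scaling, and under normexp the KO value was -0.90, the sign of WT. Xcr1 was higher in KO in M0 (0.43) and M1 (0.74) and lower in M2 (-0.52), again beyond the scanner's error and not tested as a difference. The M2 pair shares a slide and the other pairs do not.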

How the results depend on the processing

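The count of genes called in M2, 19 of 19044 in limma, moved under most alternatives: 478 with median centring, 147 with quantile normalization, 153 in the authors' value table, 272 when genes had to be above background on all 6 arrays and 1074 with an intensity trend. It was 0 under both forms of normexp (2026 and 2064 genes with an unadjusted p under 0.05), with no filter (4003) and with slide as a block (2362). Leaving out 1 array gave between 0 and 0 (1256 to 6141 unadjusted). In M1, 4867 genes were called, against 1287 and 1377 with normexp and its maximum-likelihood form and between 0 and 5403 without 1 array, the 0 counts coming without any of the M0 and M1 arrays (4253 to 5492 unadjusted). KO against WT had 35 calls with an intensity trend and 0 elsewhere. Where an array is left out the fit has fewer degrees of freedom and the lone array of a state is assumed to vary like the others; other causes were not tested.

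Of the members, Itgax in M2 passed with median centring, with genes above on all arrays and with the trend (limma adjusted p = 0.00654). Batf3 in M2 passed with these, the trend giving 0.00282, and also with quantile normalization and the authors' table. Neither passed in M2 with no filter, under either form of normexp or with slide as a block. The M1 difference of Itgax passed with the trend and with the slide block (limma adjusted p = 0.0319 and 0.0231). That of Xcr1 passed with the slide block (limma adjusted p = 0.0443). Leaving out either M2 array gave the same M1 values as the slide block, so it is no further alternative. Batf3 kept its sign in all 48 refitted values, which count each alternative once per comparison and include alternatives that give the same value. No paired analysis was possible because the groups share fewer than 2 replicate numbers; the additive model itself compares KO with WT within each state. Signals near background limit Flt3, Ccr7 and Cd209a. Normexp gave M2 minus M0 in KO as -1.06 for Flt3 and -0.41 for Xcr1. The background fitted by normexp on KO M0 was -223 units, against -4.26 to -17.1 on the others. The part of dim signal and of this fit in those values was not tested.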
